A study of Mus musculus with 20 samples.

Results

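The genes of DNA replication, mitosis and the G1 decision were followed in 20 livers of male Lepr db/db mice, an obese and diabetic strain that lacks a working leptin receptor. The set holds 40 genes of the 22298 listed in the count tables, found by symbol from a list drawn up with earlier results of these data known, of which 15 build or feed the replication machinery, 17 act in mitosis and 8 govern entry into the cycle or restrain it. Each library was made from poly(A) RNA of 1 liver, and the 4 groups held 5 mice each. All mice received an adeno-associated virus of serotype 8 (AAV8) through the tail vein at 5 weeks of age and were gavaged daily for 4 weeks. The mice labelled control (Vec) carried a non-targeting shRNA and received the vehicle, sodium carboxymethyl cellulose. Those labelled benzbromarone (Vec+BBR) carried the same vector and received BBR, a uricosuric drug, at 25 mg/kg. Those labelled PPAR knockdown (shRNA) carried shRNAs against Pparg, the gene of the nuclear receptor PPARγ, with vehicle, and those labelled PPAR knockdown + benzbromarone (shRNA+BBR) carried them with BBR at the same dose. The promoter that drove the shRNAs, and hence the liver cells that could express them, was not given in the sources used here, and every group was db/db, so a lean liver was not part of these data.

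Cells license their origins of replication in G1 by loading the Mcm2 to Mcm7 helicase with Cdc6 and Cdt1. D-type and E-type cyclins release E2F factors from the retinoblastoma proteins. E2F factors then raise the genes of nucleotide supply and of the replication fork, and a later wave driven by the MuvB complex with Foxm1 raises the genes of mitosis, such as Cdk1 and the B-type cyclins. Hepatocytes of an adult liver rarely divide, many of them are polyploid, and leukocytes and other non-parenchymal cells that divide can supply part of the same transcripts.

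The libraries held 17432904 to 25024099 counts. Alb, the serum albumin made by hepatocytes, lay between 42119 and 56174 FPKM (fragments scaled to transcript length and library size) in the 20 livers. Pparg, the knockdown's target, lay between 16.4 and 35.9 CPM (counts scaled to library size) in the Vec mice, between 28.0 and 38.3 in the Vec+BBR mice, between 3.24 and 7.31 in the shRNA mice and between 7.19 and 21.8 in the shRNA+BBR mice. The library sizes behind CPM are edgeR's effective ones, and where 5 values of a group follow each other they are those of replicates 1 to 5. Changes are log2 fold changes from edgeR's quasi-likelihood test on all 20 libraries, with p-values adjusted over 12342 genes and a threshold of 0.05. In tissue RNA, fewer cells of a type and less RNA per cell cannot be told apart.

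The promoters of 4 genes are shown, with letters that are known from promoters of the E2F wave and of the later, mitotic wave. Tk1, Cdk1 and Top2a among them passed the threshold in some comparison below, and Mcm6 passed in none. Windows of 300 bases, 250 before and 50 after the start of the gene, were taken from RefSeq on GRCm38.p6 and were found for 31 of the 40 genes. Printed 5′ to 3′ on the minus strand, which is the strand of all 4 genes, they lie at chr11:117825965-117826264 (Tk1), chr1:128359656-128359955 (Mcm6), chr10:69352863-69353162 (Cdk1) and chr11:99024140-99024439 (Top2a). Capitals mark E2F-type letters (TTTGGCGC or TTTCGCGC), the cell cycle homology region or CHR (TTTGAA), and the CCAAT box, each on either strand, where matches that overlap run together.
Tk1: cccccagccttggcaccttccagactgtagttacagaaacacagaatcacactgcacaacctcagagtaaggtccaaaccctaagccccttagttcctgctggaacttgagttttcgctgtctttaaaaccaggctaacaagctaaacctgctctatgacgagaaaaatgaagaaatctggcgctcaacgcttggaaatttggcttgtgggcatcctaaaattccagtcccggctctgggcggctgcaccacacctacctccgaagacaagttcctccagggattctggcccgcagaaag
Mcm6: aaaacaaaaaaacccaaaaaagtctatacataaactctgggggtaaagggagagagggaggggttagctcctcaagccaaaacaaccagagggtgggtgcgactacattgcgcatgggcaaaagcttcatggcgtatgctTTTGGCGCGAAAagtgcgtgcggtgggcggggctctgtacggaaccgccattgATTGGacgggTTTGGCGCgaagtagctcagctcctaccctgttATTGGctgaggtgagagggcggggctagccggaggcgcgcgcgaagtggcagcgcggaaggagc
Cdk1: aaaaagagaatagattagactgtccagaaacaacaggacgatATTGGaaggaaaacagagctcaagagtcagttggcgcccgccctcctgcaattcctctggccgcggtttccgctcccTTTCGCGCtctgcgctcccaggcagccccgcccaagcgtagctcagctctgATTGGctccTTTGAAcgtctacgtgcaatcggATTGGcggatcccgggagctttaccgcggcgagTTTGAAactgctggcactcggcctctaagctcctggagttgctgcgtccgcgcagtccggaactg
Top2a: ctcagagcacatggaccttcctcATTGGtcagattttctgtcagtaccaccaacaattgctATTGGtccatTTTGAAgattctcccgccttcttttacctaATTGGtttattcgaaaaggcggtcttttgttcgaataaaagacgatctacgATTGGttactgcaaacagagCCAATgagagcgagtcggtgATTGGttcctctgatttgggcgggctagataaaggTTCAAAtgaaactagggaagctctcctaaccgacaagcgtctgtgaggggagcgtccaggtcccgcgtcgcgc

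The Mcm6 window held 3 E2F-type matches, of which a pair on opposite strands overlapped, and no CHR. The Top2a window held 2 CHR and 6 CCAAT boxes and no E2F-type match, whereas the Cdk1 window held all 3 kinds and the Tk1 window held none. The 31 genes had 34 windows, and a gene was counted if any of its windows matched. E2F-type letters were found for 5 of 13 replication genes with a window (Mcm3, Mcm5, Mcm6, Mcm7 and Cdt1). CHR with a CCAAT box was found for 2 of 13 (Mcm2 and Cdc45). Among the mitosis genes with a window, E2F-type letters were found for 1 of 13 and CHR with a CCAAT box for 9 of 13 (69.2%). Over all 27025 genes with a window, E2F-type letters occurred in 0.929%, CHR in 20.2%, the CCAAT box in 41.1%, and CHR with the CCAAT box in 7.97%. A match is a run of letters and not a measured site.

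The 40 genes differed widely in level. Averaged over the 20 livers, the median was 2.01 FPKM for the replication genes, 0.239 FPKM for the mitosis genes and 3.11 FPKM for the G1 genes. Cdkn1a, which encodes the Cdk inhibitor p21, was the highest at 43.9 FPKM. Pcna, the sliding clamp of DNA polymerases, was the highest replication gene at 20.02 FPKM, and Ccnd3, a D-type cyclin, reached 16.9 FPKM. The mitosis genes ran from 0.0081 FPKM for Cenpf, a kinetochore protein, to 2.74 FPKM for Cdk1, the kinase that starts mitosis. Counts of 3 or fewer, taken as the floor, made up 43 of 340 values of the mitosis genes, 6 of 300 of the replication genes and 0 of 160 of the G1 genes. Of the 40 genes, 38 passed the filter on low counts, and Cenpf and Bub1, a spindle checkpoint kinase, did not. All counts and medians of changes below cover those 38 and are descriptions.

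Within every group the mice differed, and the genes of mitosis and replication were often high or low in the same animals. In the Vec group, replicate 3 was the highest mouse for 14 of 17 mitosis genes and 13 of 15 replication genes. In the Vec+BBR group, replicate 2 was the highest for 12 of 17 and 11 of 15. In the shRNA+BBR group, replicates 3 and 4 were the 2 highest mice for all 17 mitosis genes and replicate 5 was the lowest for 14 of 17. Replicate 5 was also the lowest shRNA mouse for 10 of 17 mitosis genes and 9 of 15 replication genes. Genes that vary together in the same mice are not independent of each other, and each count of changed genes rests on 5 mice a group.

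**Figure D1:**
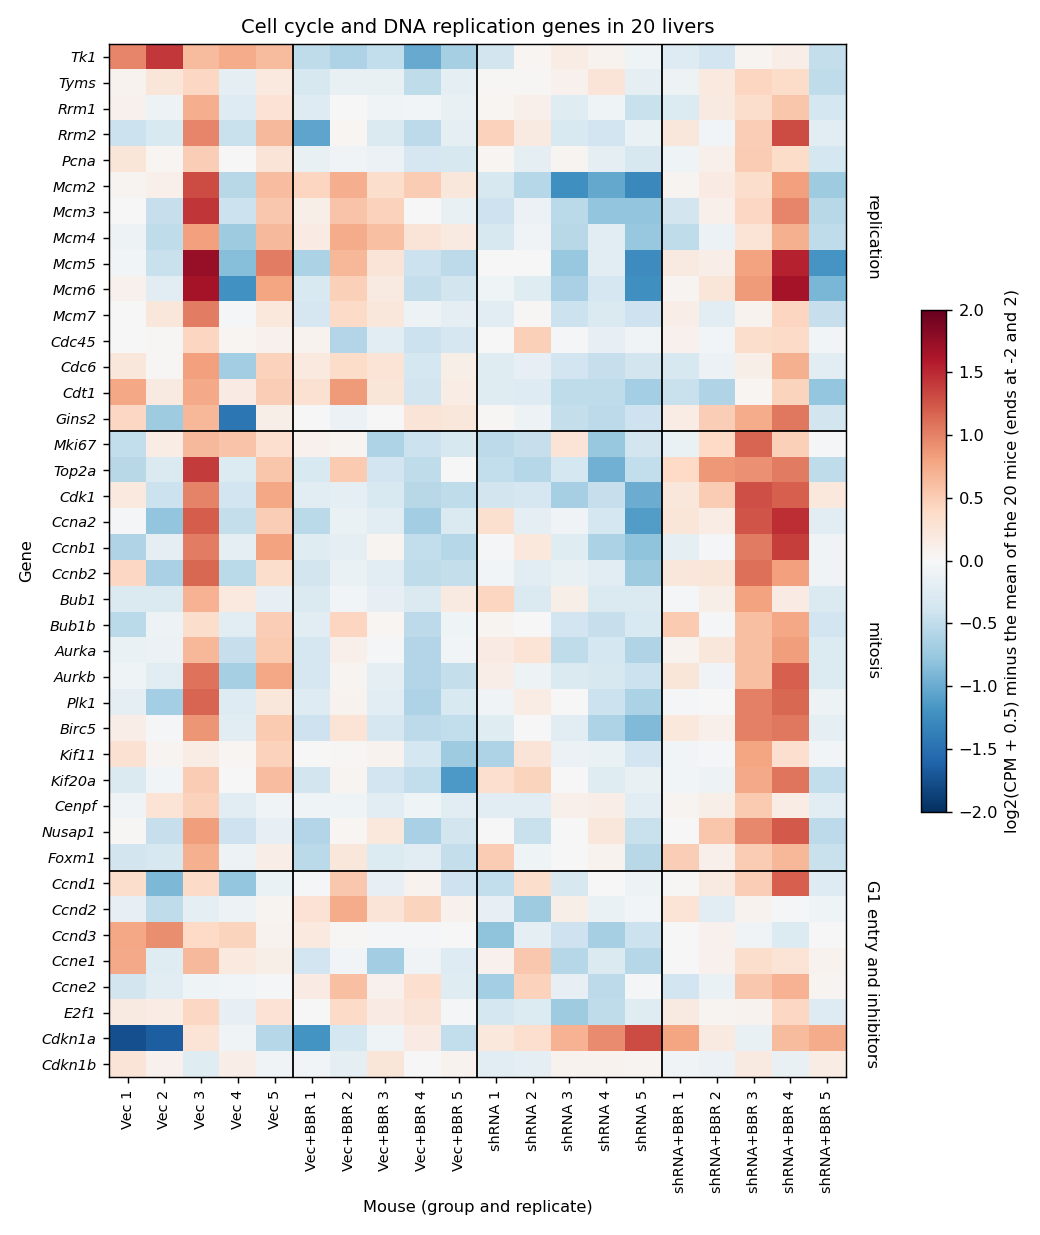
Level of each of the 40 genes (rows, in replication, mitosis and G1 blocks) in each of the 20 mice (columns, by group and replicate), as log2(CPM + 0.5) minus the gene's mean over the 20 mice. Red columns at Vec replicate 3 and at shRNA+BBR replicates 3 and 4 run through the replication and mitosis blocks, while Tk1 is red in all 5 Vec mice and Cdkn1a is darkest blue in Vec replicates 1 and 2.

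Summed over all 17 mitosis genes, the level was 12.9, 10.5, 33.5, 10.9 and 23.7 CPM in the Vec mice, 10.05, 15.3, 11.5, 7.63 and 9.09 CPM in the Vec+BBR mice, 13.98, 13.3, 11.1, 9.46 and 6.54 CPM in the shRNA mice and 17.1, 18.7, 35.5, 37.5 and 11.7 CPM in the shRNA+BBR mice. Of the Vec mice 2, and all shRNA+BBR mice but replicate 5, lay above every Vec+BBR mouse and every shRNA mouse. The helicase genes Mcm2 to Mcm7 together gave 35.3, 31.9, 94.4, 23.3 and 54.9 CPM in the Vec mice, 33.4, 53.3, 44.5, 34.6 and 31.8 CPM in the Vec+BBR mice, 29.6, 31.1, 21.1, 24.5 and 17.6 CPM in the shRNA mice and 34.5, 36.5, 49.6, 76.3 and 20.8 CPM in the shRNA+BBR mice. Here 1 shRNA+BBR mouse and 1 Vec mouse lay below the highest shRNA mouse.

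Leukocyte markers are given beside these sums. The sum of 6 T and NK cell markers, taken from a list of 13 leukocyte markers after the values had been seen, namely Cd3e, Cd3g, Cd3d, Trac, Nkg7 and Klrb1c, was 5.41, 0.321, 5.25, 4.06 and 3.67 CPM in the Vec mice, 1.45, 0.941, 1.33, 0.803 and 0.659 CPM in the Vec+BBR mice, 0.503, 2.18, 2.01, 2.67 and 0.667 CPM in the shRNA mice and 1.89, 5.84, 5.02, 4.79 and 1.81 CPM in the shRNA+BBR mice. It was at most 2.67 CPM in the Vec+BBR and shRNA mice and at least 3.67 CPM in 4 of 5 Vec mice and 3 of 5 shRNA+BBR mice. This sum rested on 14 to 34 counts in the Vec+BBR libraries and on 11 to 61 in the shRNA libraries. Vec replicate 1, with the highest marker sum of its group, had 12.9 CPM of the mitosis genes. Vec replicate 3, with the highest mitosis sum, had 5.25 CPM of the markers. Vec replicate 2 was the lowest of its group in both, at 0.321 CPM of the markers and 10.5 CPM of the mitosis genes. So was shRNA+BBR replicate 5, at 1.81 and 11.7 CPM. In the Vec+BBR and shRNA groups different mice were lowest in the marker and mitosis sums. Over the whole leukocyte list of 13 the sum ranged from 1.80 to 11.5 CPM in Vec and from 4.15 to 8.37 in Vec+BBR mice. It ranged from 2.25 to 6.44 in the shRNA mice and from 4.84 to 18.4 in the shRNA+BBR mice. The means were 8.53, 6.92, 4.53 and 11.03 CPM in that order. None of the 13 was at 0 in every mouse of a group. At or under the floor in every mouse were 2 in the Vec, 3 in the Vec+BBR, 2 in the shRNA and 0 in the shRNA+BBR group. The shRNA mice had the lowest mean of the whole list. The mitosis genes averaged 10.7 CPM in the Vec+BBR and 10.9 CPM in the shRNA mice. For both sums the Vec+BBR and shRNA means lay below the Vec and shRNA+BBR means. Ptprc and S100a9 of that list had positive log2 fold changes between Vec+BBR and Vec mice, of 0.34 and 0.48. The other 6 tested markers had negative ones, which for S100a8 and Cd79b were -0.05 and -0.17. For Cd3e, Cd3g, Trac and Nkg7, all among the T and NK cell markers, they ran from -0.99 to -2.22. Macrophage markers, a list of 12, summed to means of 445 CPM (Vec), 427 CPM (Vec+BBR), 347 CPM (shRNA) and 431 CPM (shRNA+BBR). The part of leukocytes in the differences below was not tested.

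**Figure D2:**
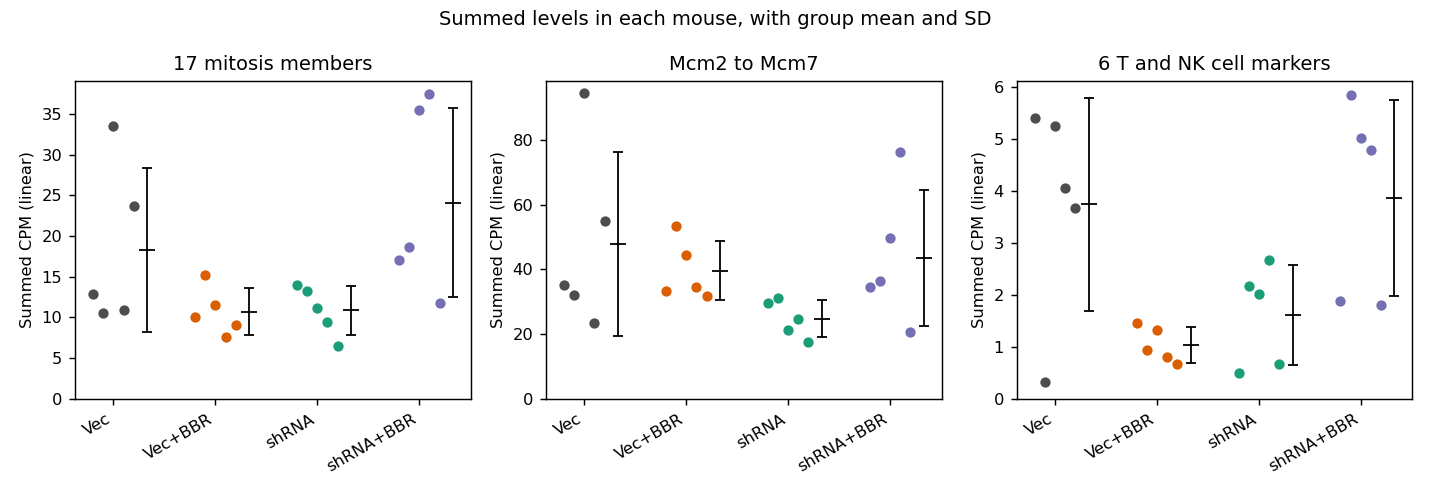
Summed CPM on linear axes of the 17 mitosis genes, of Mcm2 to Mcm7 and of 6 T and NK cell markers, with 1 point per mouse, replicates 1 to 5 from left to right, and the mean ± SD of the 5 mice beside them. Mitosis genes averaged 18.3 ± 10.1 CPM in Vec, 10.7 ± 2.92 in Vec+BBR, 10.9 ± 3.01 in shRNA and 24.1 ± 11.6 in shRNA+BBR, and the widest spreads belong to Vec and shRNA+BBR.

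The effect of BBR in livers with the control vector was led by Tk1, thymidine kinase 1, which salvages thymidine for DNA synthesis (ENSMUSG00000025574, chromosome 11 from 117815526 to 117826092, GRCm38). Tk1 measured 21.8, 29.4, 17.02, 18.4 and 17.1 CPM in the Vec mice, 7.48, 6.85, 7.56, 5.09 and 6.59 CPM in the Vec+BBR mice, 8.27, 11.1, 11.96, 11.3 and 10.2 CPM in the shRNA mice and 8.97, 8.204, 11.2, 11.9 and 7.63 CPM in the shRNA+BBR mice. The 5 Vec mice lay above all 15 other mice, and the Vec+BBR and Vec mice did not overlap. In Vec+BBR against Vec mice Tk1 fell by 1.62 on the log2 scale (SE 0.16, edgeR adjusted p = 7.94e-06), from 20.7 ± 5.24 CPM to 6.72 ± 0.998 CPM (SD, n = 5). Afmid, which has exons on the opposite strand that overlap those of Tk1 and is more abundant, also fell, by 0.93 on the log2 scale (SE 0.16, edgeR adjusted p = 0.000765) from a mean of 158 to 82.8 CPM, and with a library kit that does not mark strand the reads of both cannot be told apart where they overlap.

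Pcna, the sliding clamp, fell less steeply. Pcna measured 35.7, 30.9, 42.6, 30.1 and 35.8 CPM in the Vec mice, 27.1, 28.6, 27.5, 23.6 and 23.9 CPM in the Vec+BBR mice, 30.9, 26.2, 31.2, 26.5 and 23.9 CPM in the shRNA mice and 28.3, 32.2, 43.00, 38.8 and 23.3 CPM in the shRNA+BBR mice. Every Vec+BBR mouse lay below every Vec mouse. Pcna fell by 0.42 on the log2 scale (SE 0.14, edgeR adjusted p = 0.03898), and the call was lost without any 1 of Vec replicates 1, 3 and 5 and Vec+BBR replicates 3, 4 and 5 (adjusted p up to 0.0949).

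Of the D-type cyclins, which couple growth signals to Cdk4 and Cdk6, Ccnd3 fell and Ccnd2 rose with BBR. Ccnd3 measured 53.5, 59.8, 41.1, 42.8 and 32.8 CPM in the Vec mice, 35.95, 31.8, 30.6, 30.5 and 31.02 CPM in the Vec+BBR mice, 17.7, 27.6, 23.2, 19.4 and 23.04 CPM in the shRNA mice and 31.5, 33.1, 29.6, 25.7 and 30.95 CPM in the shRNA+BBR mice. Only the lowest Vec mouse, replicate 5, lay within the range of the Vec+BBR mice, and Ccnd3 (ENSMUSG00000034165, chromosome 17 from 47505051 to 47599691, GRCm38) fell by 0.52 on the log2 scale (SE 0.13, edgeR adjusted p = 0.0118). Ccnd2 measured 2.35, 1.74, 2.305, 2.48 and 2.83 CPM in the Vec mice, 3.38, 4.84, 3.33, 3.84 and 2.87 CPM in the Vec+BBR mice, 2.33, 1.45, 2.94, 2.41 and 2.58 CPM in the shRNA mice and 3.34, 2.24, 2.84, 2.65 and 2.49 CPM in the shRNA+BBR mice. The 5 Vec+BBR mice lay above all 5 Vec mice, and Ccnd2 rose by 0.63 on the log2 scale (SE 0.18, edgeR adjusted p = 0.0214); without Vec replicate 2 or Vec+BBR replicate 2 it no longer passed (adjusted p up to 0.07996). Ccnd1 measured 40.9, 16.8, 41.5, 18.5 and 28.97 CPM in the Vec mice, 31.00, 46.6, 28.2, 33.5 and 23.7 CPM in the Vec+BBR mice, 22.6, 40.7, 25.3, 31.98 and 29.7 CPM in the shRNA mice and 32.4, 36.3, 44.9, 73.6 and 26.6 CPM in the shRNA+BBR mice. The groups overlapped, and Ccnd1 had a log2 fold change of 0.15 (SE 0.27, edgeR adjusted p = 0.759).

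Altogether 4 of the 38 tested genes passed between Vec+BBR and Vec mice, against 15.5% of all genes tested. Those that fell were 3 of 38 (7.89%, against 7.88% of all genes) and 1 rose (7.58% of all genes did), so the count of calls stands at the background. At an unadjusted p under 0.05, 11 of 38 were lower, where 15.3% of all genes were. The median log2 fold change was -0.90 over the 15 tested mitosis genes, all of which had negative values, and -0.33 over the 15 replication genes, of which 12 did, beside -0.01 over all genes. None of the mitosis genes passed the adjusted threshold, the nearest being Cdk1 at -0.80 (SE 0.29, edgeR adjusted p = 0.0684). Without Vec replicate 3 the medians were -0.55 and -0.14.

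In vehicle-treated livers, the replication genes Mcm2, Cdt1, Tk1 and Mcm7, the mitosis gene Cdk1 and the G1 genes E2f1 and Ccnd3 fell with the knockdown, and the G1 gene Cdkn1a rose. Mcm3, Mcm4, Mcm5, Mcm6 and the loading factor Cdc6 did not pass, and the median of the G1 genes was -0.04. Mcm2 is a subunit of the replicative helicase. Mcm2 measured 6.26, 6.49, 15.6, 3.95 and 9.56 CPM in the Vec mice, 8.34, 10.3, 7.801, 8.75 and 7.16 CPM in the Vec+BBR mice, 4.75, 3.91, 2.295, 2.72 and 2.17 CPM in the shRNA mice and 6.301, 6.84, 7.86, 11 and 3.47 CPM in the shRNA+BBR mice. Every shRNA mouse lay below the Vec median, and shRNA replicate 1 alone lay above the lowest Vec mouse. Mcm2 (ENSMUSG00000002870, chromosome 6 from 88883474 to 88898780, GRCm38) fell by 1.42 on the log2 scale (SE 0.32, edgeR adjusted p = 0.00574). Cdt1 measured 3.26, 1.99, 3.24, 1.98 and 2.59 CPM in the Vec mice, 2.22, 3.49, 2.09, 1.21 and 1.93 CPM in the Vec+BBR mice, 1.37, 1.34, 1.05, 1.05 and 0.875 CPM in the shRNA mice and 1.11, 0.953, 1.75, 2.51 and 0.782 CPM in the shRNA+BBR mice. The shRNA and Vec mice did not overlap for Cdt1, the helicase loading factor, and it fell by 1.21 on the log2 scale (SE 0.30, edgeR adjusted p = 0.01003). E2f1 measured 5.46, 5.33, 6.52, 4.21 and 5.93 CPM in the Vec mice, 4.75, 6.36, 5.38, 5.76 and 4.66 CPM in the Vec+BBR mice, 3.61, 3.85, 2.698, 3.198 and 3.96 CPM in the shRNA mice and 5.43, 4.97, 5.02, 6.53 and 3.91 CPM in the shRNA+BBR mice. These groups did not overlap either, and E2f1, the transcription factor of the G1/S genes, fell by 0.67 on the log2 scale (SE 0.15, edgeR adjusted p = 0.00557).

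Tk1 fell as well, to 10.6 ± 1.44 CPM, or by 0.97 on the log2 scale (SE 0.16, edgeR adjusted p = 0.000365), while Afmid changed by -0.15 (SE 0.16, edgeR adjusted p = 0.566). Ccnd3 fell by 1.05 on the log2 scale (SE 0.14, edgeR adjusted p = 3.71e-05), with no overlap between the groups. Bysl, whose exons overlap those of Ccnd3 on the other strand, rose by 0.34 (SE 0.09, edgeR adjusted p = 0.0183).

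Mcm7 measured 8.87, 10.4, 18.4, 8.62 and 10.3 CPM in the Vec mice, 6.93, 11.7, 10.4, 8.26 and 7.72 CPM in the Vec+BBR mice, 7.49, 9.04, 6.44, 7.14 and 6.501 CPM in the shRNA mice and 9.79, 7.54, 9.38, 12.05 and 6.31 CPM in the shRNA+BBR mice. Vec replicate 3 stood far above the other Vec mice for this helicase subunit, and shRNA replicate 2 lay within the Vec range. Mcm7 fell by 0.63 on the log2 scale (SE 0.20, edgeR adjusted p = 0.0443), without Vec replicate 3 by 0.38, and the call was also lost with no filter on low counts, with only the groups compared, with the replicate block and without any 1 of Vec replicates 2 and 5 and shRNA replicates 1, 3, 4 and 5 (adjusted p up to 0.171).

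Cdk1 measured 3.86, 2.31, 7.06, 2.43 and 5.98 CPM in the Vec mice, 2.78, 2.87, 2.57, 2.098 and 2.17 CPM in the Vec+BBR mice, 2.47, 2.51, 1.89, 2.28 and 1.42 CPM in the shRNA mice and 3.97, 4.93, 8.76, 8.26 and 3.91 CPM in the shRNA+BBR mice. In the Vec group replicates 3 and 5 were high and replicates 2 and 4 lay within the shRNA range. Cdk1 (ENSMUSG00000019942, chromosome 10 from 69335146 to 69352938, GRCm38) fell by 1.05 on the log2 scale (SE 0.30, edgeR adjusted p = 0.0243), a call lost with only the groups compared and without any 1 of Vec replicates 3 and 5 and shRNA replicates 3 and 5 (adjusted p up to 0.0869). Cdkn1a measured 21.1, 22.8, 87.8, 68.9 and 48.7 CPM in the Vec mice, 31.4, 56.7, 68.3, 81.2 and 51.2 CPM in the Vec+BBR mice, 84.1, 91.3, 117, 140.4 and 179 CPM in the shRNA mice and 126, 82.4, 65.4, 113 and 122 CPM in the shRNA+BBR mice. All 5 shRNA mice exceeded the Vec median, and the lowest of them lay just under the highest Vec mouse. Cdkn1a (ENSMUSG00000023067, chromosome 17 from 29090976 to 29100727, GRCm38) was the one member that rose, by 1.29 on the log2 scale (SE 0.34, edgeR adjusted p = 0.0143), and it passed under every alternative tried.

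In all, 8 of 38 passed between shRNA and Vec mice, where 13.2% of all genes did. The 7 that fell make 18.4% of the tested members, against 7.91% of all genes, and the 1 that rose makes 2.63%, against 5.28%. Unadjusted, 17 were lower, where 15.8% of all genes were. All 15 replication genes and all 15 tested mitosis genes had negative log2 fold changes, with medians of -0.63 and -0.88 beside -0.01 over all genes, and without Vec replicate 3 these medians were -0.38 and -0.50. Without Vec replicate 4, in contrast, 13 members passed, while over all genes 2284 passed against 1628 with all mice. The Vec mice serve as the reference of both comparisons above, so a high or low Vec mouse enters both.

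**Figure D3:**
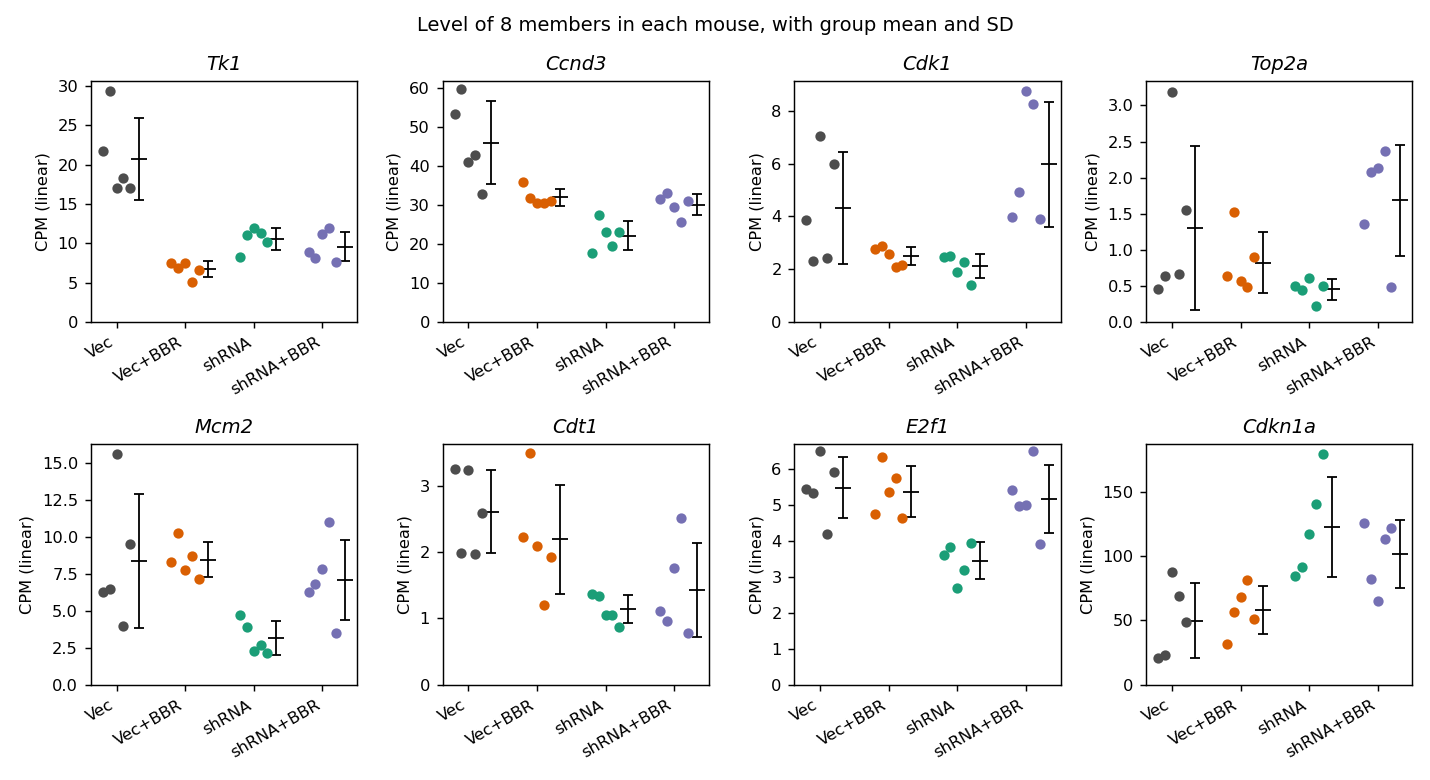
CPM on linear axes of Tk1, Ccnd3, Cdk1, Top2a, Mcm2, Cdt1, E2f1 and Cdkn1a, with 1 point per mouse, replicates 1 to 5 from left to right, and the group mean ± SD of 5 mice beside them. Tk1 is highest in the 5 Vec mice, and Cdk1 is higher in all 5 shRNA+BBR mice than in any Vec+BBR or shRNA mouse. Cdkn1a has its highest group mean in the shRNA mice, whose range overlaps that of the shRNA+BBR mice.

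Among BBR-treated livers, Cdk1 was the one of 15 tested mitosis genes that passed, and it was higher with the knockdown. Cdk1 averaged 5.97 ± 2.36 CPM in the shRNA+BBR mice against 2.495 ± 0.3501 CPM in the Vec+BBR mice (SD, n = 5), without overlap, and rose by 1.26 on the log2 scale (SE 0.29, edgeR adjusted p = 0.0118). It passed under every alternative tried, with the lowest value, 1.09, among them. Ccnb2 measured 0.952, 0.193, 1.91, 0.254 and 0.895 CPM in the Vec mice, 0.342, 0.493, 0.428, 0.268 and 0.282 CPM in the Vec+BBR mice, 0.548, 0.446, 0.483, 0.438 and 0.167 CPM in the shRNA mice and 0.775, 0.787, 1.85, 1.41 and 0.538 CPM in the shRNA+BBR mice. The 5 shRNA+BBR mice lay above all Vec+BBR mice for this B-type cyclin, and its log2 fold change of 1.55 (SE 0.48, edgeR adjusted p = 0.05004) fell just short of the threshold. For Tk1 the shRNA+BBR mice lay above every Vec+BBR mouse as well, with a log2 fold change of 0.51 (SE 0.16, edgeR adjusted p = 0.0561).

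Cdk1 was the only one of 38 to pass between shRNA+BBR and Vec+BBR mice (2.63%, against 8.13% of all genes in either direction and 3.31% higher), and none was lower (4.82% of all genes were). At an unadjusted p under 0.05, 19 of 38 were higher, where 11.4% of all genes were, and 13 of these were mitosis genes, all but Bub1b and Kif11. The 15 tested mitosis genes all had positive values, from 0.62 for Bub1b, a spindle checkpoint gene, to 1.58 for Plk1, a kinase of mitotic entry, with a median of 1.26. The replication genes had a median of 0.34, with 10 of 15 positive, and all genes had one of 0.00. Without shRNA+BBR replicate 5, the mouse lowest in these genes, 9 members passed, and 3 passed without Vec+BBR replicate 1. Over all genes, 311 rose and 442 fell without the former mouse and 1129 passed without the latter, against 1004 with all mice. Without shRNA+BBR replicate 4 the replication median was 0.21.

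With BBR under the knockdown, 4 of the 15 tested mitosis genes rose, namely Cdk1, Top2a, Birc5 and Mki67, and of these Cdk1 alone kept its call under every alternative tried. Cdk1 rose from 2.11 ± 0.459 CPM in the shRNA mice to 5.97 ± 2.36 CPM in the shRNA+BBR mice (SD, n = 5), or by 1.50 on the log2 scale (SE 0.30, edgeR adjusted p = 0.00489), and no mouse of either group lay within the other's range. Top2a measured 0.451, 0.643, 3.19, 0.659 and 1.55 CPM in the Vec mice, 0.641, 1.52, 0.571, 0.491 and 0.894 CPM in the Vec+BBR mice, 0.503, 0.446, 0.604, 0.219 and 0.5001 CPM in the shRNA mice and 1.36, 2.07, 2.13, 2.37 and 0.489 CPM in the shRNA+BBR mice. Of the shRNA+BBR mice 4 exceeded every shRNA mouse, and replicate 5 lay among them. Top2a, the topoisomerase that untangles sister chromatids (ENSMUSG00000020914, chromosome 11 from 98992943 to 99024189, GRCm38), rose by 1.88 on the log2 scale (SE 0.50, edgeR adjusted p = 0.0193), and lost the call without either of shRNA replicate 4 and shRNA+BBR replicate 3 (adjusted p up to 0.0556).

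Birc5 measured 0.852, 0.707, 1.77, 0.558 and 1.27 CPM in the Vec mice, 0.428, 0.985, 0.476, 0.357 and 0.377 CPM in the Vec+BBR mice, 0.548, 0.725, 0.564, 0.307 and 0.167 CPM in the shRNA mice and 0.921, 0.829, 1.99, 2.05 and 0.587 CPM in the shRNA+BBR mice. All shRNA+BBR mice exceeded the shRNA median for Birc5, survivin, a subunit of the chromosomal passenger complex, and it rose by 1.48 on the log2 scale (SE 0.43, edgeR adjusted p = 0.0262). Leaving out any 1 of shRNA replicates 4 and 5 and shRNA+BBR replicates 3 and 4 ended that call (adjusted p up to 0.0888). Mki67 measured 0.1503, 0.514, 0.932, 0.862 and 0.659 CPM in the Vec mice, 0.4703, 0.448, 0.0951, 0.179 and 0.235 CPM in the Vec+BBR mice, 0.137, 0.167, 0.604, 0.0438 and 0.208 CPM in the shRNA mice and 0.339, 0.704, 1.56, 0.776 and 0.391 CPM in the shRNA+BBR mice. For Mki67, the proliferation marker Ki-67, the ranges overlapped, since shRNA replicate 3 lay above shRNA+BBR replicates 1 and 5. It rose by 1.64 on the log2 scale (SE 0.56, edgeR adjusted p = 0.0498), a call lost with no filter on low counts and without any 1 of shRNA replicates 1, 2, 4 and 5 and shRNA+BBR replicates 2, 3 and 4 (adjusted p up to 0.187). The counts behind it were small, and 5 of its 20 values were at or under the floor.

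Mcm2 rose by 1.17 on the log2 scale (SE 0.32, edgeR adjusted p = 0.0208), to 7.09 ± 2.72 CPM (SD, n = 5), with shRNA+BBR replicate 5 within the shRNA range. Without shRNA replicate 5 or shRNA+BBR replicates 3 or 4 it did not pass (adjusted p up to 0.0604). E2f1 rose by 0.58 on the log2 scale (SE 0.15, edgeR adjusted p = 0.0165), to 5.17 ± 0.942 CPM (SD, n = 5), and passed under every alternative tried. Ccnd3 rose by 0.44 on the log2 scale (SE 0.13, edgeR adjusted p = 0.0328), to 30.2 ± 2.803 CPM, and did not pass without any 1 of shRNA replicates 1, 4 and 5 and shRNA+BBR replicates 2 and 3 (adjusted p up to 0.0852). Cdkn1a was at 102 ± 26.5 CPM against 122 ± 38.8 CPM, a log2 fold change of -0.27 (SE 0.33, edgeR adjusted p = 0.598), and for Tk1 it was -0.14 (SE 0.16, edgeR adjusted p = 0.563).

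Thus 7 of 38 passed between shRNA+BBR and shRNA mice, all of them higher (18.4%, against 8.37% of all genes), and none was lower (7.28% of all genes), with 15.7% of all genes passing in either direction. Unadjusted, 18 were higher, where 17.2% of all genes were. The median log2 fold change was 1.23 over the mitosis genes, all 15 positive, and 0.50 over the replication genes, 14 of 15 positive, beside 0.01 over all genes. The number that passed was 2 without shRNA+BBR replicate 3, 3 without shRNA replicate 4 or 5, 4 without shRNA+BBR replicate 4 and 15 without shRNA+BBR replicate 5, and without shRNA+BBR replicate 4 the replication median was 0.19. Calls over all genes moved too, from 1932 with all mice to 661 without shRNA+BBR replicate 3 and 2527 without shRNA+BBR replicate 5.

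Whether the BBR effect differed between the vectors was tested by the interaction, the log2 fold change with BBR under the knockdown minus that under the control vector. Of the 38 genes 3 passed (7.89%), and 18 of all 12342 genes did, or 0.146%. For Cdk1 the BBR effects were -0.80 under the control vector and 1.50 under the knockdown, a difference of 2.31 (SE 0.42, edgeR adjusted p = 0.0277). The call was lost without any 1 of Vec+BBR replicates 3, 4 and 5 and shRNA replicates 3 and 4 (adjusted p up to 0.0565). For Tk1 the difference was 1.48 (SE 0.23, edgeR adjusted p = 0.0108), from a fall of 1.62 under the control vector to a change of -0.14 under the knockdown, and it passed under every alternative tried, whereas Afmid had a difference of 0.26 (SE 0.22, edgeR adjusted p = 0.540). For Ccnd3, which fell with BBR under one vector and rose under the other, the difference was 0.97 (SE 0.19, edgeR adjusted p = 0.0406). That call was lost without any 1 of Vec replicates 1 and 2, Vec+BBR replicates 2, 3, 4 and 5, shRNA replicates 1, 3, 4 and 5 and shRNA+BBR replicates 1, 2 and 3, at adjusted p-values up to 0.0903.

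At an unadjusted p under 0.05 the interaction was positive for 27 of the 38 genes, where it was for 9.79% of all genes, and these were 13 mitosis, 11 replication and 3 G1 genes. All 15 tested mitosis genes had positive differences, from 0.94 for Foxm1, the transcription factor of the mitotic wave, to 2.74 for Mki67, with a median of 2.29. The replication genes were positive too, from 0.23 for Mcm4 to 1.79 for Mcm5, with a median of 0.74. Over all genes the median was 0.01. The number that passed was 5 without Vec replicate 4 and 1, Tk1, without any 1 of Vec+BBR replicates 3, 4 and 5 and shRNA replicates 3 and 4. Calls over all genes were 122 without Vec replicate 4 and 5 without Vec+BBR replicate 4, against 18 with all mice.

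**Figure D4:**
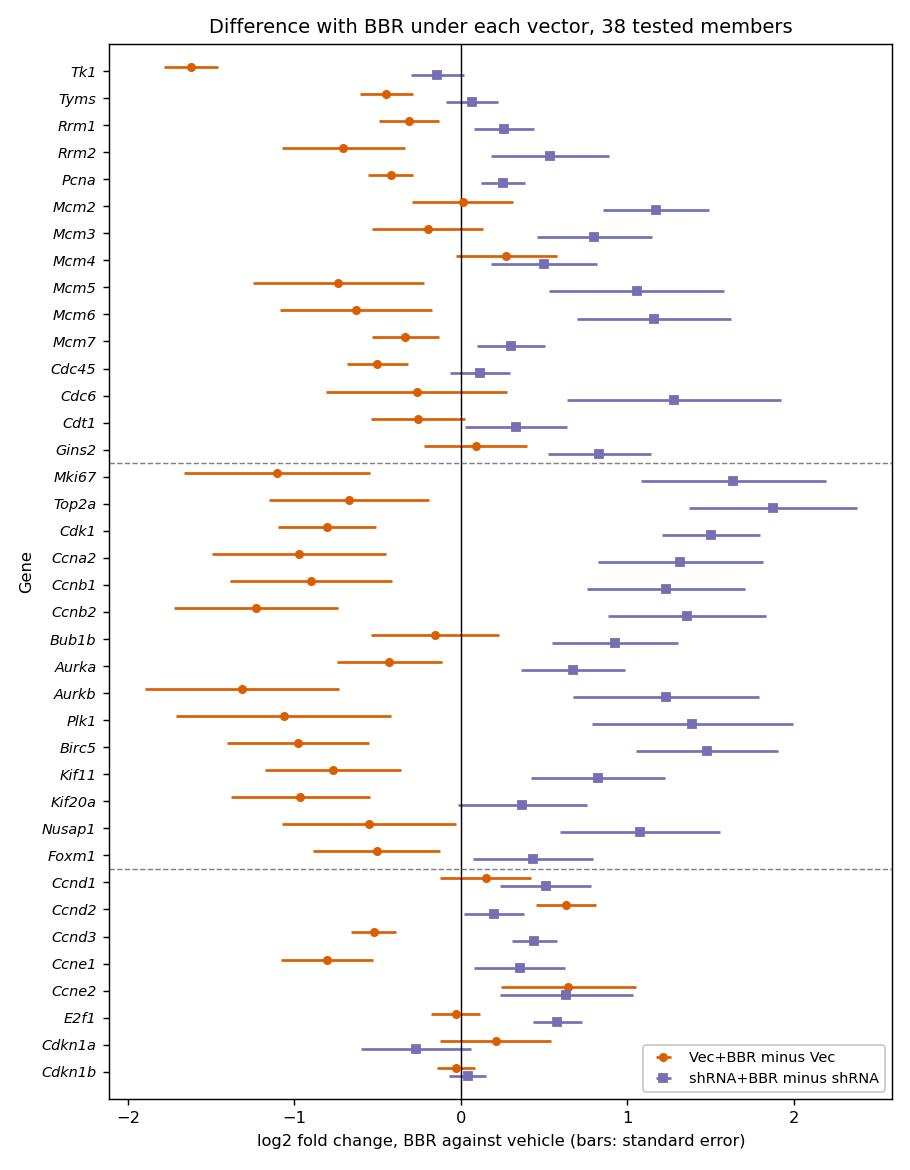
log2 fold change with BBR for the 38 tested genes, under the control vector (circles, Vec+BBR minus Vec) and under the knockdown (squares, shRNA+BBR minus shRNA), with bars for 1 standard error and dashed lines between the replication, mitosis and G1 genes. All 15 mitosis genes lie left of 0 under the control vector and right of 0 under the knockdown, and Tk1 has the farthest circle to the left, at -1.62.

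Genes that reached no threshold did not all share the sign of their group's median. Mcm4, a helicase gene named after its values were seen, had log2 fold changes of 0.27 with BBR under the control vector and -0.40 between shRNA+BBR and Vec+BBR mice (edgeR adjusted p = 0.594 and 0.438), where the replication medians were -0.33 and 0.34. Among nucleotide supply genes, Rrm2, a ribonucleotide reductase subunit, had log2 fold changes of -0.70 with BBR under the control vector and 0.54 under the knockdown (edgeR adjusted p = 0.204 and 0.295). The helicase genes Mcm5 and Mcm6 had -1.13 and -1.07 with the knockdown under vehicle (edgeR adjusted p = 0.162 and 0.132). Ccne1, an E-type cyclin, had -0.80 with BBR under the control vector (edgeR adjusted p = 0.0522), while Cdkn1b, the gene of the inhibitor p27, lay between -0.08 and 0.04 in the 4 comparisons between groups. Bub1 averaged 0.0651 to 0.203 CPM and Cenpf 0.0264 to 0.138 CPM in the 4 groups. In 8 exact two-sided permutation tests of these 2 genes the lowest p was 0.0476, for Cenpf between shRNA+BBR and Vec+BBR mice, and adjusted over the 8 tests the values ran from 0.381 to 0.643, where 5 against 5 mice cannot go below 0.00794.

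Other genes of the pathway were counted from lists that hold none of the members. With BBR under the control vector, 6 of 39 tested replication genes fell, among them the fork components Gins1 (-0.92), Rfc5 (-0.62), Prim2 (-0.80) and Rpa1 (-0.35), and none rose, where 7.88% of all genes fell. With the knockdown under vehicle 4 of the 39 fell, where 7.91% of all genes did, and none rose. They were Mcm10 (-1.43), Rfc5 (-0.72), Dut (-0.55) and Gins3 (-1.11). Mcm10, which helps the helicase to fire, had a log2 fold change of -1.21 between shRNA+BBR and Vec+BBR mice (edgeR adjusted p = 0.000301) as well, where the median of that list was 0.14. Between shRNA+BBR and shRNA mice 2 rose, Gins3 (1.23) and Mcm10 (0.53), and none fell, where 8.37% of all genes rose.

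Of 30 other tested mitosis genes, 4 rose between shRNA+BBR and Vec+BBR mice, namely Mad2l1 (0.86), Prc1 (1.78), Cdca3 (1.02) and Ube2c (1.14), and none fell, where 3.31% of all genes rose. Between shRNA+BBR and shRNA mice 5 rose, among them Spc25 (0.79), Nek2 (0.74), Prc1 (1.83) and Smc2 (1.42), and none fell, where 8.37% of all genes rose. Spc24, a kinetochore gene, fell with BBR under the control vector (-0.83) and with the knockdown under vehicle (-0.81), where Nek2 fell as well (-0.92), and no other gene of that list passed in either. Of all genes, 7.88% and 7.91% fell in these comparisons. The medians of these 30 genes were -0.33, -0.40, 0.56 and 0.70 in the 4 comparisons between groups, in the order described above, and 1.00 for the interaction. None of them passed for the interaction, and 15 had an unadjusted p under 0.05, all positive, where 9.79% of all genes did.

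Of 18 targets typical of p53, a factor that can raise Cdkn1a, 5 rose with the knockdown under vehicle, where 5.28% of all genes did, and none fell. They were Ccng1 (0.90), Mdm2 (0.60), Plk2 (0.93), Tnfrsf10b (0.94) and Zmat3. Any part of p53 in the rise of Cdkn1a was not tested. Between shRNA+BBR and shRNA mice 5 fell, where 7.28% of all genes did, and none rose. Among them were Sesn2 (-0.58), Mdm2 (-0.42), Aen (-0.40) and Eda2r (-0.65). With BBR under the control vector Tnfrsf10b rose (0.86) and none fell, and none passed between shRNA+BBR and Vec+BBR mice, where 4 were higher and 1 lower at an unadjusted p under 0.05. In the former 7.58% of all genes rose, and in the latter 11.4% were higher at that unadjusted p. Of 24 other tested G1 regulators, which share Ccng1 with the p53 list, Cdk6, a partner of the D-type cyclins, fell with the knockdown under vehicle (-0.83) and in shRNA+BBR against Vec+BBR mice (-0.49), and rose in shRNA+BBR against shRNA mice (0.48). In that list 0 rose and 2 fell with BBR under the control vector, 1 rose and 4 fell with the knockdown under vehicle, 1 rose and 2 fell between shRNA+BBR and Vec+BBR mice, and 2 rose and 1 fell between shRNA+BBR and shRNA mice. Of all genes, the shares that rose and fell were 7.58% and 7.88%, 5.28% and 7.91%, 3.31% and 4.82%, and 8.37% and 7.28% in that order.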

How the data were processed

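Poly(A) RNA of 20 livers, 4 groups of 5 mice, was sequenced as 1 library per mouse with a kit that does not mark strand. For each library the authors deposited expected counts and FPKM values per gene. The submitters' processing notes name the build mm10, and the aligner and counter are not given in the sources used here. Expected counts were rounded (91.9% to 93.3% of those deposited were whole), and reads had been divided among genes for 12 of the 40 members in at least 1 library, such as Ccnd1, Ccnd3, Ccna2 and Gins2 in all 20. Exons of 11 members overlap those of another listed gene. The FPKM values were used only to compare levels between genes.

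Genes were kept by edgeR's filter (minimum count 10, total 15), scaled by TMM (factors 0.873 to 1.14) and tested with the quasi-likelihood method of edgeR 4.0.16 in R 4.3.3, with all 4 groups in 1 fit, 5 contrasts and Benjamini-Hochberg adjustment over 12342 genes. The biological coefficient of variation was 0.177. Cenpf and Bub1, kept out by the filter, were compared by exact two-sided permutation tests. CPM are counts scaled to effective library size, and the floor of 3 counts is 0.121 to 0.193 CPM. Positions come from GENCODE M21. The edgeR fit was tested on simulated data, with changes set in the Vec+BBR group and in genes of higher counts than most mitosis genes have. Changes in low-count genes, the interaction and the permutation tests were not part of that test. The replicate numbers were not shown to pair the mice, and in any comparison at most 3 of 5 pairs of libraries correlated over 0.1.

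The members and the other lists were chosen with earlier results of these data known. Values in every mouse are given for members past the threshold in any comparison, for the 3 with the smallest p in each, and for Mki67, Top2a, Mcm2, Pcna, Ccnd1 and Cdkn1a, and from each other list at most 4 genes past the threshold are named per comparison, smallest p first, beyond which Zmat3 was named after its value was seen. Alternatives were DESeq2 1.42.0, median-of-ratios (RLE) factors, no filter, at least 10 counts in every library, fits of only the groups compared, a replicate block, an unadjusted threshold and leaving out each mouse. The p-values set each difference against the spread between these mice. Each SE is the absolute log2 fold change divided by the square root of the F statistic of its edgeR test. Lists of hepatocyte, erythroid, endothelial, stellate and cholangiocyte markers were summed too: their group means in CPM, in the order Vec, Vec+BBR, shRNA and shRNA+BBR, were 137000, 110680, 126460 and 117410 (hepatocyte), 914, 1317, 541 and 917 (erythroid), 110, 142, 147 and 143 (endothelial), 230, 339.9, 224 and 307 (stellate), and 33.8, 65.1, 31.4 and 56.0 (cholangiocyte).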

Additional observations from a re-analysis of the deposited data

Results flagged for a closer look

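In 4 of 60 sets of 5 mice, 1 mouse stood apart from the other 4 by a gap that chance exceeds in about 1 of 20 sets. Mcm7 measured 18.4 CPM in Vec replicate 3, where the other Vec mice lay between 8.62 and 10.4. Ccnb2 measured 0.167 CPM in shRNA replicate 5, where the others lay between 0.438 and 0.548. Birc5 measured 0.985 CPM in Vec+BBR replicate 2, where the others lay between 0.357 and 0.476. Ccnd3 measured 36.0 CPM in Vec+BBR replicate 1, where the others lay between 30.5 and 31.8.

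The effect of BBR differed between the vectors, by the interaction term of the edgeR fit, for 3 members. The difference was 1.48 for Tk1, 2.31 for Cdk1 and 0.97 for Ccnd3 on the log2 scale (adjusted p = 0.0108, 0.0277 and 0.0406). Each was positive, and the part of other cell types in them was not tested.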

How the results depend on the processing

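No direction changed for the medians of the replication and mitosis genes (178 alternatives) or for the 23 changes of single genes (391 alternatives), of which 12 kept their call throughout and 11 lost it at least once. The number of members called moved more. In the order of the comparisons above, ending with the interaction, it was 4, 8, 1, 7 and 3, against 12, 18, 21, 18 and 27 at an unadjusted p under 0.05. With DESeq2 it was 7, 10, 6, 10 and 5, beside 2249, 1959, 1418, 2372 and 338 over all genes. Between shRNA+BBR and Vec+BBR mice it was 2 with RLE factors, 2 with at least 10 counts in every library, 2 with the replicate block and 5 with only these groups fitted, and between shRNA+BBR and shRNA mice it was 4 with at least 10 counts. With 1 mouse left out it ranged from 3 to 7, from 6 to 13, from 1 to 9, from 2 to 15 and from 1 to 5. Calls over all genes between groups then ranged from 1237 to 2395, from 1015 to 2284, from 538 to 1129 and from 661 to 2527. The block changed no call of a single member past the threshold but that of Mcm7 in shRNA against Vec mice, and the numbers were not shown to pair the mice. The interaction median of the mitosis genes was 1.73 with at least 10 counts in every library, where fewer of them were tested, and 1.76 to 2.46 with 1 mouse left out. Over all genes the interaction passed for 338 genes with DESeq2 against 18, and for 5 to 122 with 1 mouse left out. Apart from the change in what was tested, the causes were not tested. Low counts limit the mitosis genes most, since 43 of their 340 values lie at or under 3 counts.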
